A study of Rattus norvegicus with 9 samples.

Results

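Gene expression in prostates of rats with dihydrotestosterone-induced benign prostatic hyperplasia was compared between animals that received ghrelin in addition (BPH+ghrelin) and animals that did not (BPH). The comparison used the 3 arrays of each group, and 22149 of 30356 probes were members, because they were well above background, as marked by the scanner software, on at least 3 of these 6 arrays. They represented 19749 genes, of which 11618 had a symbol. Male Sprague Dawley rats, aged 6 weeks when they were bought, were castrated in both groups and received 3 mg/kg dihydrotestosterone subcutaneously each day for 4 weeks. Rats of the BPH+ghrelin group were also given 20 nmol/kg ghrelin orally each day for 2 weeks, starting when androgen had been given for 2 weeks. A figure legend of the study states a different dose and route. The study had 8 rats per group and does not say which 3 were used. Sham-operated rats (3 arrays) are given as a further level beside the values. Their arrays also entered the normalization and the estimate of spread used in the tests. The 12 genes that the study picked from these arrays for follow-up are not named below. Counts over all genes include 11 of them, which were tested, and 3 of these were called.

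Ghrelin is a peptide hormone from the stomach, which acts through a G protein-coupled receptor (GHSR) and stimulates appetite and release of growth hormone. The prostate consists of secretory epithelium, whose survival and secretion depend on androgens, and of a stroma with smooth muscle, fibroblasts, vessels and immune cells. Supplementation of androgen after castration restores the epithelium and drives growth, in which cells pass through DNA replication and mitosis. Whole tissue was used for the arrays, so that fewer cells of a type and less RNA per cell cannot be told apart.

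Median raw signals were 58.2, 56.1 and 45.4 on the BPH arrays and 36.2, 40.0 and 33.8 on the BPH+ghrelin arrays. Before normalization, every array with ghrelin was thus dimmer than every BPH array, and the part of this in the differences below was not tested. On these 6 arrays, 69.48% to 75.05% of probes were well above background. Of the 3 arrays of a group, replicate 2 lay between the other arrays at 71.2% of genes in the BPH group and at 68.9% in the BPH+ghrelin group, compared to 13.2% to 17.5% for each other array. All BPH arrays and BPH+ghrelin replicate 1 were on 1 slide, while BPH+ghrelin replicates 2 and 3 were on another. Of 28 genes of rat prostate secretory proteins on the array, 23 passed the filter. Probasin (Pbsn), a defining protein of the rat prostate, had log2 signals of 14.11, 13.72 and 13.11 in BPH and 14.46, 14.40 and 14.34 in BPH+ghrelin. Tissues around the prostate were present to different extents. Adiponectin (Adipoq), a defining marker of fat, had log2 signals of 11.43, 10.95 and 9.99 in BPH and of 0.58, 10.88 and 11.94 in BPH+ghrelin, so that 1 array lacked it. Semenogelin 1 (Semg1), from the seminal vesicle, had log2 signals of 14.53, 13.63 and 7.35 in BPH and 10.14, 9.45 and 5.24 in BPH+ghrelin. Sham arrays held more of it, with a mean of 16.48 ± 0.36 (SD, n = 3).

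In limma (Benjamini-Hochberg adjustment, threshold 0.05), 293 of 19749 genes (1.48%) were called, which included 98 genes (0.496%) that were higher and 195 (0.987%) that were lower with ghrelin. With ghrelin, 26 of the genes called as lower never clearly exceeded background, and 7 of those called as higher never did so in BPH. As these 26 and 7 genes passed the filter only through their higher group, their calls are not support for a difference. Calls of this kind are also part of the counts for lists below. A rise of the mean by 2-fold or more was found for 573 genes (2.90%), and the reverse for 632 genes (3.20%). Arrays of both groups did not overlap at 3918 genes (19.8%) that were higher and 3816 (19.3%) that were lower with ghrelin, and these shares are the background for each count of genes without overlap below. With 3 arrays in each group, 0.1 is the smallest p of an exact two-sided permutation test. The p-values from limma refer to the spread between arrays within all 3 groups, sham included. The split of calls depended on scaling, because 244 of 517 calls (47.2%) were higher with each array scaled to its 75th percentile, compared to 33.4% in the main analysis. Calls also depended on single arrays. When 1 BPH array was left out, calls numbered 9 (replicate 1), 3 (replicate 2) and 398 (replicate 3), and when 1 BPH+ghrelin array was left out, they numbered 78, 7 and 35 in the same order. Each gene chosen by the naming rule was called in at most 3 of these 6 fits. With slide as a block, which leaves BPH+ghrelin replicate 1 as the array compared with BPH, 2 genes were called, and differences of 2-fold or more were found upward for 675 genes and downward for 915. Without replicate 2 of both groups, limma called 0 genes, while 1366 genes had an unadjusted p under 0.05, and at least 2-fold differences were found for 622 genes that were higher and 693 that were lower.

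Genes were grouped to 44 lists by function or cell type. The median log2 difference over all genes tested was 0.02. Medians were highest for mitosis and DNA replication, and lowest for fat tissue, the seminal vesicle and coagulating gland, complement, macrophages and smooth muscle. Normexp, another background correction, was used with an offset of 50 added to each signal, which alone makes differences of dim genes smaller. With normexp, medians were closer to 0 for smooth muscle (-0.24), macrophages (-0.28), chemokines and interleukins (-0.16) and glycosyltransferases (-0.12). The same held for fibroblasts and matrix (-0.18), vessels (-0.15), matrix proteases (-0.14), fat tissue (-0.175) and DNA replication (0.29).

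**Figure D1:**
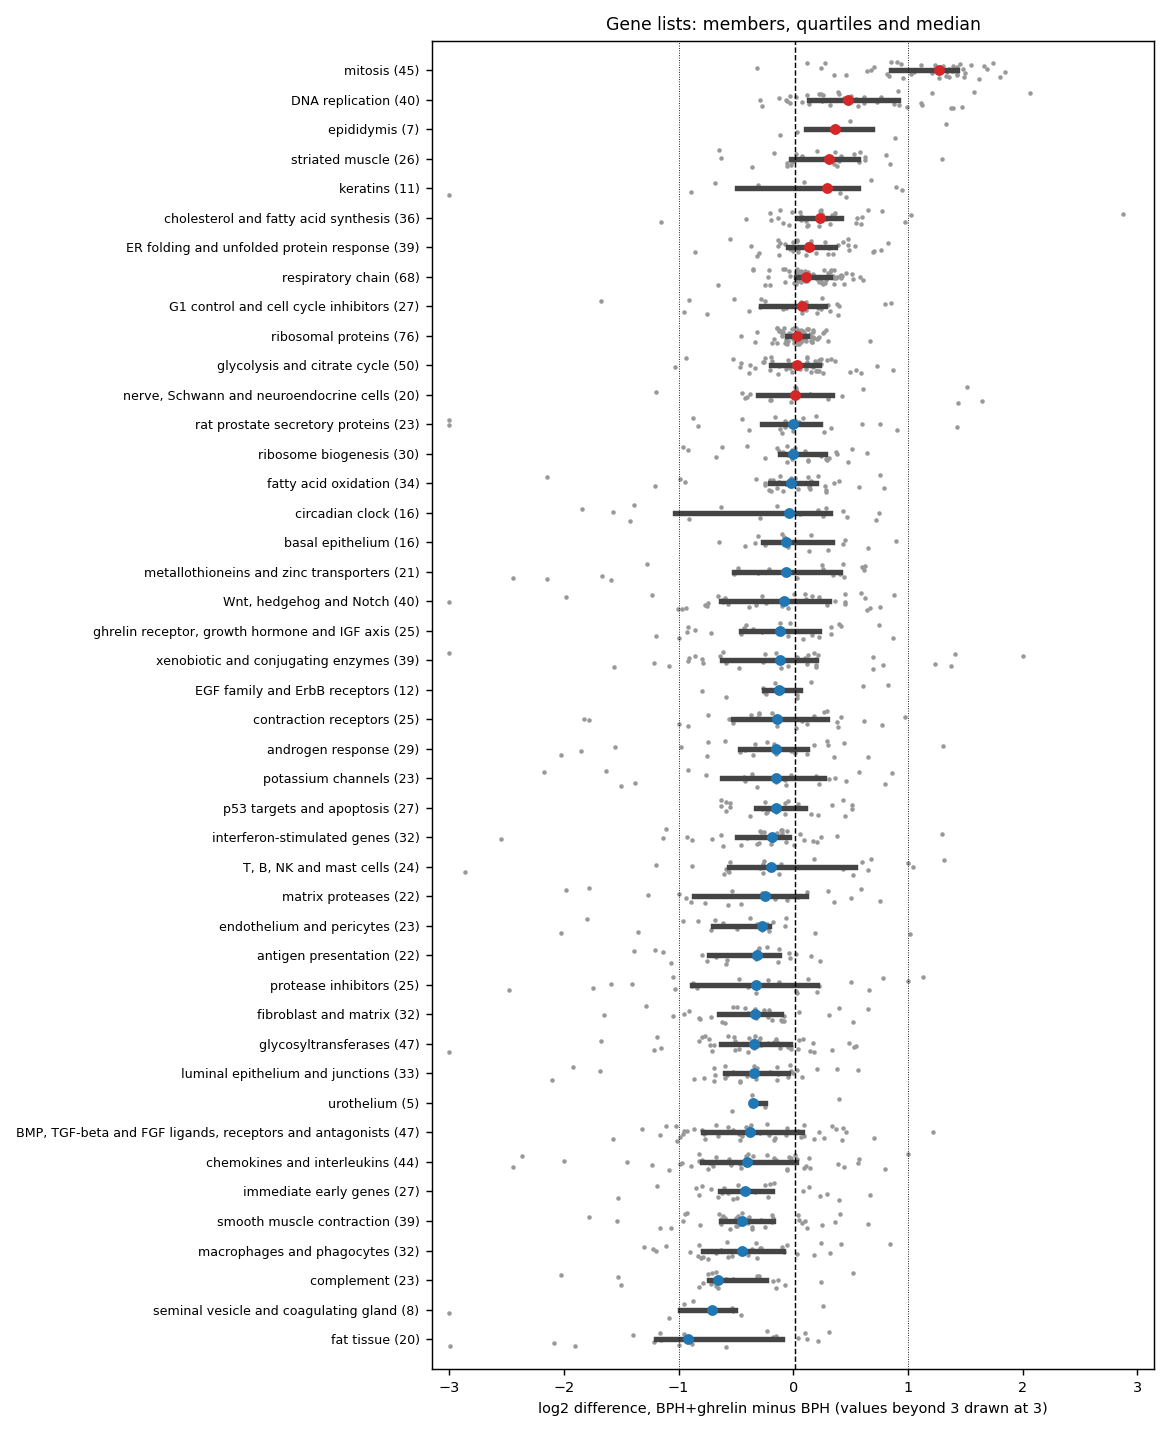
Log2 difference of BPH+ghrelin minus BPH (x axis) for the members of 44 gene lists (y axis, number of genes tested in parentheses), with grey points for genes, bars for the quartiles and coloured points for the median (red above 0, blue at or below 0). The dashed line is the median over all genes (0.02), dotted lines are 2-fold differences, and the mitosis list lies farthest to the right with a median of 1.27.

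Genes of the cell cycle showed the widest shift toward higher values. Of 45 genes of mitosis, 44 had higher means with ghrelin, 30 were at least 2-fold higher and 27 did not overlap between the groups, while 0 were called by limma (31 at an unadjusted p under 0.05). Their median log2 difference was 1.27. Of 40 genes of DNA replication, 33 had higher means, 8 were at least 2-fold higher and 20 did not overlap, with a median log2 difference of 0.48. Mcm3 was the called gene of this list. By contrast, 27 genes of G1 control and cell cycle inhibitors had a median of 0.08, with 15 higher and 12 lower means and 0 calls.

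Mcm3 encodes a subunit of the helicase that opens DNA at replication origins. Its log2 signals were 8.97, 9.30 and 9.64 in BPH and 10.61, 10.40 and 10.25 in BPH+ghrelin, compared to a mean of 8.86 ± 0.07 (SD, n = 3) in sham. All arrays with ghrelin lay above all others, and the gene rose by 1.12 (SE 0.18) on the log2 scale (limma, adjusted p = 0.0349). A second probe of Mcm3 gave a log2 difference of 0.60. The catalytic subunit of DNA polymerase delta, Pold1, had log2 signals of 7.97, 7.96 and 8.02 in BPH and 8.65, 8.49 and 8.46 with ghrelin (log2 difference 0.55, adjusted p = 0.0607). Timeless, which protects replication forks, had 6.88, 7.47 and 7.93 in BPH and 8.81, 8.60 and 8.50 with ghrelin (log2 difference 1.21, adjusted p = 0.0624). Pcna, the sliding clamp of the polymerases, differed less, with 11.01, 11.15 and 11.24 against 11.80, 11.61 and 11.40 (log2 difference 0.47, adjusted p = 0.131).

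The mitotic genes with the smallest p-values were Kif22, Ndc80 and Aspm. Kif22, a kinesin that moves chromosomes on the spindle, had log2 signals of 7.21, 7.88 and 8.33 in BPH and 9.64, 9.34 and 8.87 with ghrelin (log2 difference 1.48, SE 0.30, adjusted p = 0.055). Ndc80, which ties kinetochores to microtubules, had 5.87, 6.44 and 7.18 in BPH and 8.00, 7.90 and 7.87 with ghrelin (log2 difference 1.43, adjusted p = 0.0583). Aspm, a protein of the spindle poles, had 6.01, 6.90 and 7.57 against 8.70, 8.47 and 8.16 (log2 difference 1.62, adjusted p = 0.0643). For Cdk1, the kinase that starts mitosis, the groups almost touched, since BPH replicate 3 reached 9.83 and BPH+ghrelin replicate 3 reached 9.87 (log2 difference 1.42, adjusted p = 0.177). BPH replicate 1 was the lowest array of the BPH group for Kif22, Ndc80, Aspm, Cdk1 and Timeless.

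The spread between the BPH arrays was wide for this group. Medians of the mitosis list, relative to the mean of the 3 groups, were -1.08, -0.13 and 0.56 in BPH, 1.40, 1.08 and 0.56 in BPH+ghrelin and -0.46, -1.04 and -0.68 in sham. Thus, replicate 3 of both groups stood at the same level by this measure. Medians of the replication list were -0.14, -0.03 and 0.17 in BPH and 0.60, 0.33 and 0.23 with ghrelin, without overlap. Without BPH replicate 1, the median log2 difference of mitosis genes decreased to 0.76, and 13 of 45 genes were at least 2-fold higher. Over the 6 fits without 1 array it ranged from 0.76 to 1.64, and within the slide that held arrays of both groups it was 1.59. With normexp background correction it was 0.75, and 11 genes were at least 2-fold higher.

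**Figure D2:**
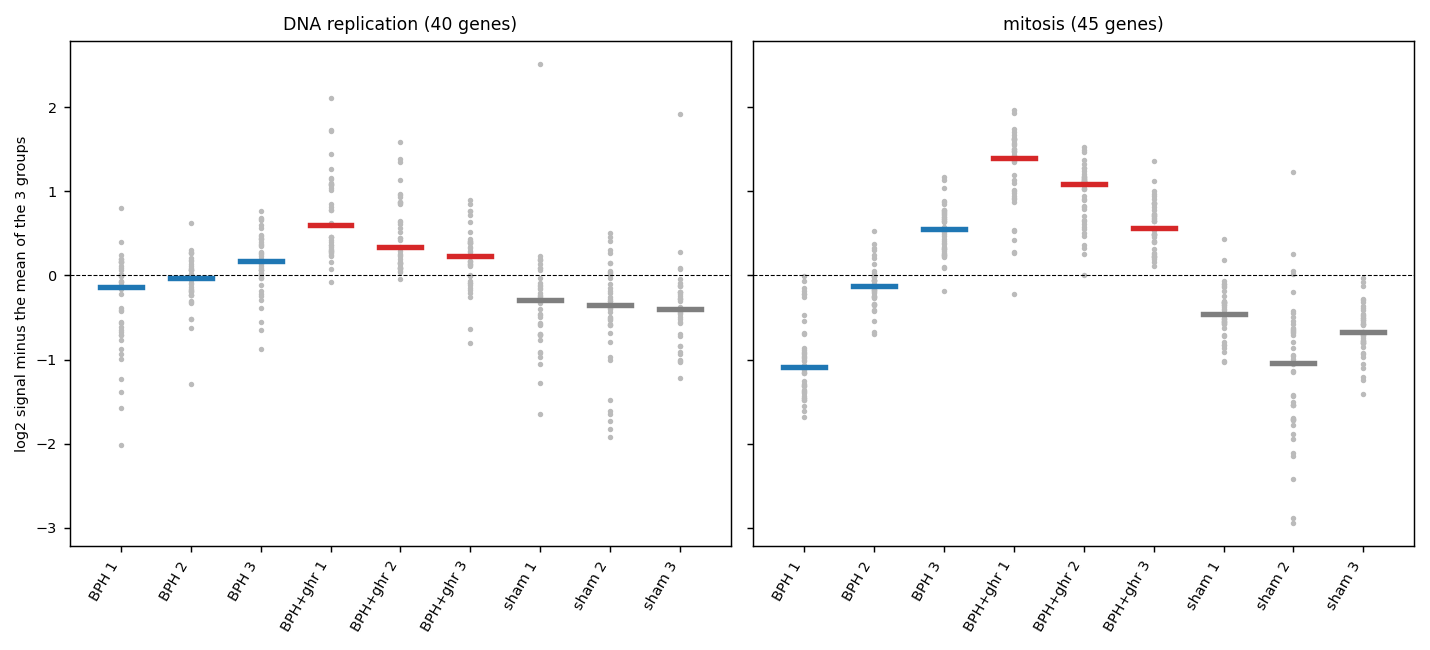
Log2 signal of each gene of DNA replication (left, 40 genes) and mitosis (right, 45 genes) on each of 9 arrays, relative to the mean of the 3 groups (y axis). Grey points are genes and thick lines are medians (blue BPH, red BPH+ghrelin, grey sham), and the mitosis median of BPH replicate 3 reaches that of BPH+ghrelin replicate 3 (0.56 for both).

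Promoters of these genes were examined for motifs, because mitotic genes share elements close to their start. The table of RefSeq promoters (assembly GRCr8, 250 bases before to 50 after the start) held 38 of the 45 mitosis genes. The cell cycle genes homology region, searched as TTTGAA on both strands, was found in 28 of 38 (73.7%), compared to 12.7% of promoters of genes tested and 18.1% of all promoters. The CCAAT motif, on both strands, was also found in 28 of 38 (73.7%), compared to 38.1% and 37.7%. An E2F motif (TTTGGCGC, TTTCCCGC, TTTCGCGC or TTTGCCGC, both strands) was found in 14 of 32 promoters of replication genes (43.8%), compared to 3.73% of promoters of genes tested and 2.25% of all promoters. These are matches of letters and no measured sites. Of the genes described above, Kif22, Aspm and Cdk1 are shown for the 150 bases before the start, with both mitotic motifs in capitals on either strand:
Kif22, GRCr8 chr1:191080879-191081028, minus strand: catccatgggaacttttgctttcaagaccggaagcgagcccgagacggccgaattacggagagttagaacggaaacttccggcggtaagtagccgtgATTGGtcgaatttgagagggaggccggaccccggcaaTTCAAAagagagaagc
Aspm, GRCr8 chr13:53625434-53625583, plus strand: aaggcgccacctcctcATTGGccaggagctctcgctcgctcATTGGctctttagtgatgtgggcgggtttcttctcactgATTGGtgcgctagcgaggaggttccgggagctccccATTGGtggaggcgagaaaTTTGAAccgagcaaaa
Cdk1, GRCr8 chr20:19265143-19265292, plus strand: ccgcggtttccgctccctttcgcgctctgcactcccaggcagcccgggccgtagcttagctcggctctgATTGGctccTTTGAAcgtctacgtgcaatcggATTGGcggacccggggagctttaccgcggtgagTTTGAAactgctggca

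In each of these 3 promoters, a TTTGAA match on either strand ended 11 bases before the start. Ndc80 held such a match after the start, and no CCAAT within the 300 bases. The E2F match of Mcm3, which spans the start, is given in capitals for 30 bases, and the capitals at the end begin a second match that lies mostly outside:
Mcm3, GRCr8 chr9:30733732-30733761, minus strand: acttccgtgGCGGGAAAacttgggaagtTT

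Of the genes named by rule, 25 were called as higher, Mcm3 included, and 51 as lower. With normexp, another background correction, the log2 differences of 52 of these 76 genes were smaller by more than 1.5 times. The largest rise among genes above background on all 6 arrays was that of Nr1i2, the pregnane X receptor, a nuclear receptor for xenobiotics, although with normexp its log2 difference was 0.77, below that of Ccdc125 (1.40). Its log2 signals were 4.44, 4.65 and 5.07 in BPH and 7.05, 6.77 and 6.36 in BPH+ghrelin, a 4.01-fold difference on the quantile-normalized scale (SE 0.23 on the log2 scale, adjusted p = 0.016). All arrays with ghrelin also lay above the sham mean of 5.64 ± 0.20 (SD, n = 3). Cyp2s1, a cytochrome P450, rose with a log2 difference of 1.24 (adjusted p = 0.0147), although its other 2 probes gave -0.05 and 0.02. Mgst2, a microsomal glutathione transferase, fell by 0.86 on the log2 scale (adjusted p = 0.025). Among 39 enzymes and receptors of xenobiotic metabolism, 2 were called as higher and 3 as lower, and the median log2 difference was -0.12. The other 2 calls were Ephx2, an epoxide hydrolase, with a log2 difference of -1.22, and Sult1c2a, a sulfotransferase, which were singled out after their values were seen. Sult1c2a had log2 signals of 7.99, 7.71 and 7.33 in BPH and 0.71, 0.77 and 3.17 in BPH+ghrelin. As 1 of 3 arrays with ghrelin was well above background, the size of this difference was not well measured, and with normexp it was -1.84.

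Genes of the androgen response showed no common direction. Of 29 genes, 11 had higher and 18 lower means, with a median log2 difference of -0.15, which was 0.06 with arrays scaled to the 75th percentile. Fkbp5, a co-chaperone of steroid receptors, had 15.32, 15.11 and 15.02 against 15.12, 15.18 and 15.16 (log2 difference 0.01, and 0.50 with arrays scaled to the 75th percentile). Mme, the membrane peptidase neprilysin, fell by 0.98 on the log2 scale (adjusted p = 0.039). With arrays scaled to the 75th percentile, the log2 difference of Mme was -0.47. The probe of Herc3, a ubiquitin ligase, was well above background on 3 arrays of BPH and 0 with ghrelin (at least 3.19-fold lower, adjusted p = 0.0316). Herc3 passed the filter only through BPH, so that its call and p-value are not support for a difference. With normexp, its log2 difference was -0.30.

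Secretory proteins of the rat prostate were split evenly, with 11 higher and 11 lower means among 23 genes, 0 calls and a median log2 difference of 0.00. Over the alternatives other than leaving out 1 array, this median ranged from -0.03 to 0.27, so that it depended on the processing. Scgb2a1, a secretoglobin singled out after its values were seen, had log2 signals of 15.72, 15.63 and 15.86 in BPH and 6.95, 14.11 and 15.05 with ghrelin. The array that was low for it was also the one that lacked Adipoq. Pbsn showed a log2 difference of 0.76 (adjusted p = 0.132), Ces1d, a carboxylesterase, one of 0.90 and Klk1c10, a kallikrein of a family with near-identical copies, one of 1.42 (adjusted p = 0.193 and 0.264). With arrays scaled to the 75th percentile, the log2 differences of Pbsn, Ces1d and Klk1c10 were 1.15, 1.12 and 1.38.

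Enzymes of cholesterol and fatty acid synthesis had higher means in 27 of 36 genes, with a median log2 difference of 0.23. Arrays did not overlap at 13 of these genes, and 1 was called. The median of the list was 0.46 with arrays scaled to the 75th percentile. The called gene was Mvd, mevalonate diphosphate decarboxylase, with log2 signals of 8.98, 9.11 and 9.21 in BPH and 10.19, 10.11 and 10.07 with ghrelin (log2 difference 1.02, SE 0.15, adjusted p = 0.025). Elovl6, a fatty acid elongase, had 10.96, 10.88 and 10.86 against 11.75, 11.82 and 12.06 (log2 difference 0.98, adjusted p = 0.122), and Hsd17b7, which acts in cholesterol synthesis, had a log2 difference of 0.56 (adjusted p = 0.154). In fatty acid oxidation, 16 of 34 genes were higher and 18 lower, with a median log2 difference of -0.02 and 0 calls. Acot7, an acyl-CoA thioesterase, had a log2 difference of 0.79 (adjusted p = 0.0669).

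Respiratory chain genes showed a shift of many members, and its size depended on scaling. Of 68 genes, 56 had higher means and 29 of these did not overlap, with a median log2 difference of 0.11, 0 genes at least 2-fold apart and 0 calls in either direction. Ndufb5, a subunit of complex I, had a log2 difference of 0.41 (adjusted p = 0.105), whereas Atp5f1b, the beta subunit of ATP synthase, had one of -0.65 (adjusted p = 0.073). Of 76 ribosomal proteins, 50 were higher and 26 lower, with a median of 0.04. Rpl19 was called (log2 difference 0.67, adjusted p = 0.0436), but its other probe gave -0.30. Scaling to the 75th percentile moved the median over all genes to 0.10, compared to 0.02. The median became 0.47 for the respiratory chain and 0.50 for ribosomal proteins. Thus, the size of the shift of these abundant genes depended on scaling. In glycolysis and the citrate cycle, 26 of 50 genes were higher and 24 lower (median 0.03, 0 calls), and in ribosome biogenesis, 15 of 30 were higher and 15 lower (median 0.00). Utp4, a factor of ribosomal RNA processing, fell by 0.62 (adjusted p = 0.0407). Chaperones and enzymes of the endoplasmic reticulum, which fold secretory proteins, had higher means in 26 of 39 genes (median 0.14, 0 calls). The direction of this list rested on single arrays, since its median was -0.04 without BPH replicate 1 and 0.37 without BPH replicate 3. Hspa5, the chaperone BiP, had log2 signals of 15.09, 15.81 and 16.13 against 15.97, 16.03 and 15.91, with overlap. The ERSE motif, which contains CCAAT, was found in 9 of 32 promoters of this list (28.1%), compared to 0.147% of promoters of genes tested.

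Of the other genes that rose, several act in signalling. Ntrk3, the receptor of neurotrophin 3, had log2 signals of 6.01, 6.23 and 6.53 in BPH and 7.39, 7.32 and 7.41 with ghrelin (log2 difference 1.11, adjusted p = 0.025), and its second probe gave 1.20. Vasn, a surface protein that binds TGF-beta, rose by 1.08 (adjusted p = 0.0301; other probe 0.29). Kcnip3, a calcium sensor that modulates potassium channels, had 4.07, 3.64 and 3.44 against 4.94, 5.04 and 5.19, which was a rise by 1.35 (adjusted p = 0.025). Ankrd37, an ankyrin repeat protein, rose by 1.28, Lgals4, a galectin, by 1.04 and Tsc22d2 by 1.04 (adjusted p = 0.024, 0.025 and 0.0199). Ccdc125 rose by 1.64 (adjusted p = 0.0113) and Slc25a35, a mitochondrial carrier, rose 2.14-fold (adjusted p = 0.0132). The sham mean of Ccdc125 (10.00) lay within its range with ghrelin (9.63 to 10.18), and that of Slc25a35 (10.34) lay below it (10.50 to 10.60). Hist1h2bo, a histone H2B gene of a family with near-identical copies, rose by 1.15 (adjusted p = 0.024). Mad1l1, a protein of the spindle checkpoint, rose by 1.15 (adjusted p = 0.0471), although its other probe gave 0.28.

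**Figure D3:**
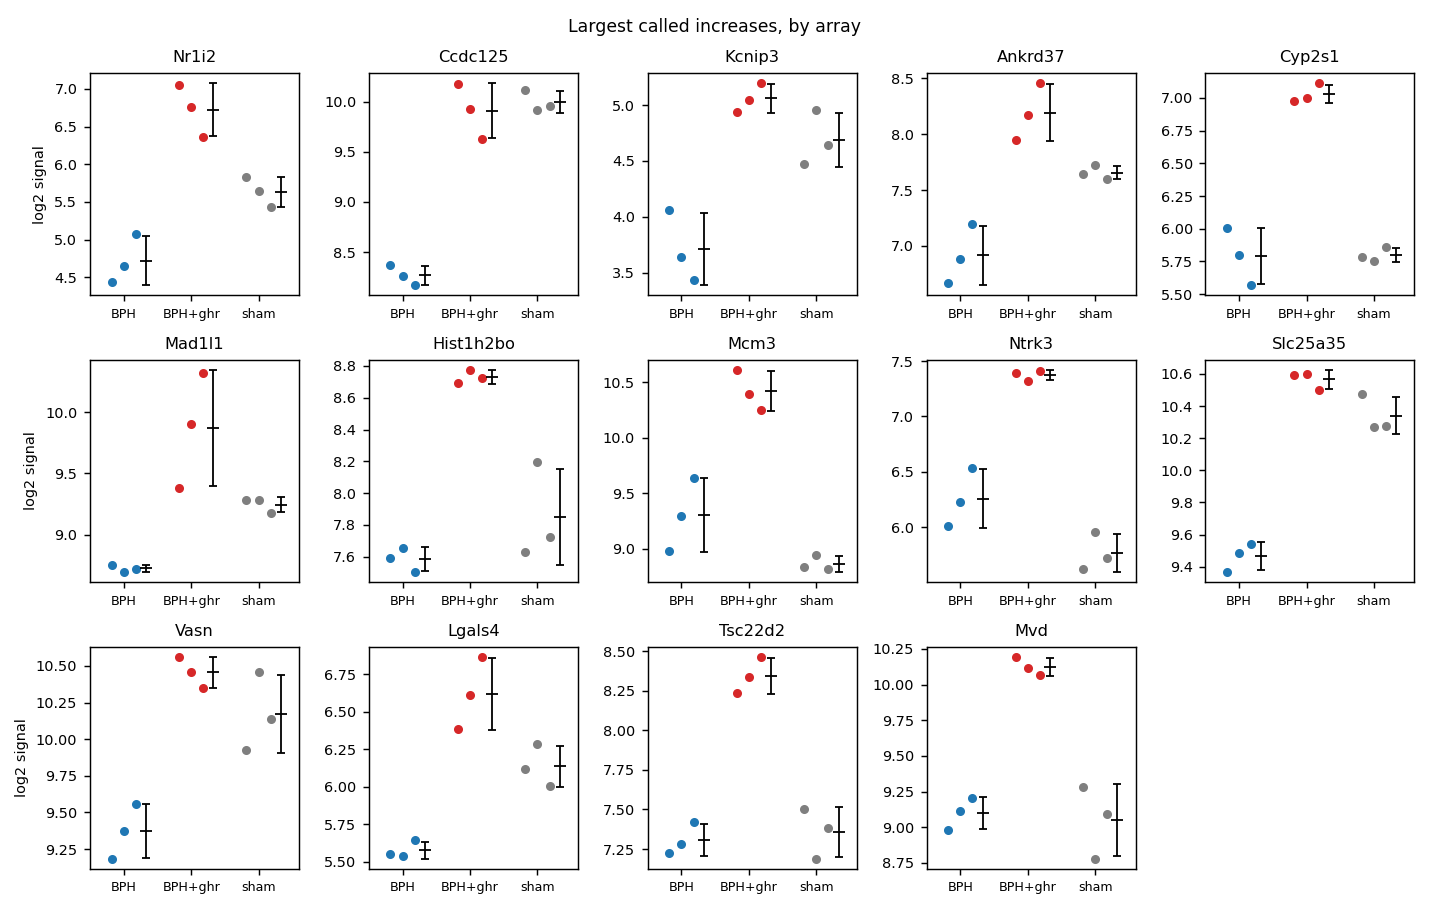
Log2 signals (y axis) on each array for 14 genes that have a symbol, among those with the largest called increases and probes well above background on all 6 arrays compared (points: blue BPH, red BPH+ghrelin, grey sham). Black bars are mean ± SD of 3 arrays, and the y axes differ between genes. All red points lie above all blue points, and the largest increase of the 14 genes is that of Nr1i2 (4.01-fold).

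Some called genes were well above background on 0 arrays of BPH and 3 with ghrelin. Such genes passed the filter only through the group in which they were high, so that their number and their p-values are not support for a difference. Their fold values are lower bounds, which were calculated against the background limit of each array. Abcb9, a lysosomal peptide transporter, was at least 1.82-fold higher and Arl9, a small GTPase, at least 1.70-fold (adjusted p = 0.024 and 0.0346). The olfactory receptors Or4a77c and Or5d47 were at least 1.96-fold and 1.80-fold higher (adjusted p = 0.0473 and 0.0429), with the reservation that they belong to families with similar sequences. With normexp, the log2 differences of these 4 genes were 0.10 to 0.13.

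Smooth muscle genes were lower with ghrelin in 30 of 39 cases, with a median log2 difference of -0.45. Of these, 22 did not overlap, 4 were at least 2-fold lower and 2 were called. Myh11, the myosin heavy chain of smooth muscle, had log2 signals of 11.18, 11.42 and 11.40 in BPH, 10.37, 10.37 and 10.37 with ghrelin and a mean of 11.44 ± 0.03 (SD, n = 3) in sham. It fell by 0.96 (SE 0.11, adjusted p = 0.016), and a second probe gave a log2 difference of -0.90. Cald1, caldesmon, which restrains actomyosin, fell by 1.16 (adjusted p = 0.0291), with 8.71, 9.03 and 9.28 against 7.68, 7.89 and 7.97. Lmod1, an actin nucleator, had a log2 difference of -1.54 (adjusted p = 0.0571), which was -0.27 with normexp. It was well above background on 2 of 3 arrays with ghrelin. Common markers of smooth muscle differed less. For Acta2, smooth muscle actin, 12.52, 12.97 and 13.25 in BPH overlapped with 12.56, 12.37 and 12.18 (log2 difference -0.55, adjusted p = 0.31), and for desmin (Des), 9.02, 9.51 and 10.00 overlapped with 9.14, 9.04 and 8.89 (-0.49, adjusted p = 0.354). Without 1 array, the median of the list ranged from -0.48 to -0.40. Summed signals of the list, which are set by its most abundant genes, overlapped, with 17.25 to 17.52 in BPH and 17.30 to 17.32 with ghrelin. A CArG box was found in 1 of 34 promoters of the list (2.94%), compared to 1.64% of all promoters.

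Receptors and ligands of contraction showed no common direction, with 12 higher and 13 lower means among 25 genes and a median of -0.14. Edn1, the constrictor peptide endothelin-1, was called, with log2 signals of 6.27, 6.25 and 6.21 in BPH and 4.88, 4.44 and 4.06 with ghrelin. It fell by 1.78 (SE 0.28, adjusted p = 0.0316). Ednrb, one of its receptors, had 5.12, 4.95 and 5.04 against 3.12, 3.38 and 3.11, which did not pass the threshold (log2 difference -1.83, adjusted p = 0.118). The SD of Ednrb was 0.09 in BPH, 0.15 with ghrelin and 1.29 in sham, which also enters the test. Adrb1, the beta-1 adrenoceptor, had a log2 difference of 0.78 (adjusted p = 0.115). Among potassium channels, 1 of 23 genes was called as higher and 3 as lower, with a median of -0.15. Kcnmb4, a subunit of large-conductance calcium-activated channels, rose by 0.86 (adjusted p = 0.0429), while Kcnn4, an intermediate-conductance channel, fell by 2.18 (adjusted p = 0.039) and Kcns3, named because it completes the calls, by 0.92 (adjusted p = 0.043). Kcnn4 was well above background on 2 of 3 arrays with ghrelin, and its log2 difference with normexp was -0.62. Kcnq1, a voltage-gated channel, fell by 1.63 (adjusted p = 0.0298), but its second probe gave 0.10.

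Genes of fibroblasts and matrix were lower in 27 of 32 cases, with a median log2 difference of -0.33, 15 genes without overlap and 2 calls. Lum, the collagen-binding proteoglycan lumican, had log2 signals of 6.98, 6.73 and 6.33 in BPH and 4.62, 5.08 and 5.39 with ghrelin. It fell by 1.65 (SE 0.23, adjusted p = 0.024). Vim, vimentin, had 8.92, 8.72 and 8.52 against 7.30, 7.38 and 7.64 and fell by 1.28 (adjusted p = 0.0252). Dcn, decorin, had a log2 difference of -0.81 (adjusted p = 0.0933). In all 3 genes, the array without Adipoq, BPH+ghrelin replicate 1, had the lowest value, and the part of fat in these differences was not tested. Without that array the median of the list was -0.31. Of 22 matrix proteases and their regulators, 14 were lower, 10 of these without overlap (median -0.25). Plau, the urokinase, fell 3.95-fold, with 8.09, 7.72 and 7.16 against 5.84, 5.78 and 5.40 (adjusted p = 0.0252). Mmp16, a membrane-bound metalloproteinase, was well above background on 0 of 3 arrays with ghrelin, and its mean was at least 1.81-fold lower (adjusted p = 0.0603, with a log2 difference of -0.11 with normexp). As Mmp16 passed the filter only through BPH, its p-value is not support for a difference.

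Markers of vessels were lower in 21 of 23 genes, with a median log2 difference of -0.27, 12 genes without overlap and 3 calls. Cldn5, the claudin of endothelial junctions, had log2 signals of 5.84, 5.48 and 5.19 in BPH and 4.46, 3.91 and 4.07 with ghrelin (fell by 1.35, adjusted p = 0.0272). Rgs5, a marker of pericytes, fell by 0.96 (adjusted p = 0.0295), and the vessel-remodelling factor Angpt2 was at least 2.49-fold lower (adjusted p = 0.0301). Angpt2 was well above background on 0 of 3 arrays with ghrelin and passed the filter only through BPH. Its call and p-value are thus not support for a difference, and its log2 difference with normexp was -0.23. The summed signal of all 23 markers was 12.67 to 13.04 on the log2 scale in BPH, 12.37 to 12.51 with ghrelin and 12.63 to 13.14 in sham, so that groups with and without ghrelin did not overlap.

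Macrophage genes contained the largest number of calls among the lists. Of 32 genes, 26 had lower means, 17 of these did not overlap and 6 were called, with a median log2 difference of -0.45. Cybb, a subunit of the phagocyte oxidase, had log2 signals of 6.51, 6.52 and 6.35 in BPH and 5.37, 5.20 and 5.21 with ghrelin. It fell by 1.20 (SE 0.12, adjusted p = 0.0113), to levels below the sham mean of 5.69 ± 0.09 (SD, n = 3). The lysosomal protease Ctss had 10.18, 9.99 and 9.94 against 9.10, 9.14 and 9.17 (fell by 0.90, adjusted p = 0.024), and the scavenger receptor Msr1 was also called, although it was well above background on 1 of 3 arrays with ghrelin and its log2 difference with normexp was -0.09. Ptprc, the pan-leukocyte marker CD45, had 8.71, 8.54 and 8.33 against 7.62, 7.68 and 7.83 (fell by 0.82, adjusted p = 0.0368), and its second probe gave a log2 difference of -1.44. The 2 other calls, named because they complete the count, were the mannose receptor Mrc1 (log2 difference -1.30) and C1qa, a chain of complement C1q (-0.80). Summed signals of the list ranged from 16.02 to 16.31 in BPH and from 15.71 to 16.06 with ghrelin. No such pattern was seen for T, B, NK and mast cells, with 9 higher and 15 lower means of 24 genes (median -0.19, 0 calls). In that list, Coro1a, a leukocyte actin-binding protein, and Nkg7 had log2 differences of -0.59 and -0.55 (adjusted p = 0.0938 and 0.113). Ly49s7, a receptor of natural killer cells from a family with similar copies, fell by 1.72 (adjusted p = 0.0442).

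Complement genes were lower in 21 of 23 cases, with a median log2 difference of -0.66, of which 13 did not overlap and 1 was called. The receptor C5ar1 had a log2 difference of -0.79 and clusterin (Clu), a secreted chaperone that rises after androgen withdrawal, one of -2.03 (adjusted p = 0.0571 for both). For Clu, 13.43, 13.54 and 13.67 stood against 12.32, 11.71 and 10.52. Summed signals of the list were 16.72 to 16.80 in BPH and 16.15 to 16.36 with ghrelin. Without 1 array, the list median ranged from -0.79 to -0.38, the latter without BPH+ghrelin replicate 1.

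Of 22 genes of antigen presentation, 19 were lower, 10 of these without overlap, and 2 were called (median log2 difference -0.32). Cd74, the invariant chain of MHC class II, had 10.71, 10.70 and 11.05 in BPH and 9.69, 9.75 and 9.82 with ghrelin (fell by 1.06, adjusted p = 0.0162). RT1-Da, a class II alpha chain, fell by 1.14 (adjusted p = 0.024). RT1-S3, a class I gene with near-identical copies, was spread widely in BPH, with 11.21, 10.61 and 9.47 against 9.32, 9.15 and 9.19 (log2 difference -1.21, adjusted p = 0.14). Genes stimulated by interferon were lower in 24 of 32 cases (median -0.19) with 0 calls, and the median was -0.04 without BPH replicate 1 and -0.40 without BPH replicate 3. Ifit3 and Irf7 had log2 differences of -1.13 and -0.93 (adjusted p = 0.0938 and 0.127), while Ifit1 was well above background on 1 of 3 arrays with ghrelin.

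Chemokines and interleukins were lower in 32 of 44 cases, with a median log2 difference of -0.41, 20 of these without overlap and 3 calls. Cxcl1, which attracts neutrophils, had log2 signals of 4.80, 4.83 and 4.96 in BPH and 3.71, 3.88 and 4.09 with ghrelin (fell by 0.97, adjusted p = 0.024), and its sham mean was 6.60 ± 0.08 (SD, n = 3). Ccl7, which attracts monocytes, fell by 1.23 (adjusted p = 0.0349). Ccl28, a chemokine of mucosal epithelia, had 6.09, 6.62 and 6.99 against 5.00, 4.24 and 3.12 (fell by 2.44, adjusted p = 0.047). It was well above background on 2 of 3 arrays with ghrelin, and its log2 difference with normexp was -0.86. The alarmin Il33 was singled out after its values were seen, because 10.11, 9.71 and 9.31 in BPH stood against 7.48, 7.30 and 7.23, a difference of -2.37 that did not pass the threshold (adjusted p = 0.0927). With normexp, the log2 differences of the dim genes Cxcl1 and Ccl7 were -0.21 and -0.21. The part of the added offset in these smaller values was not separated from that of the background correction.

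**Figure D4:**
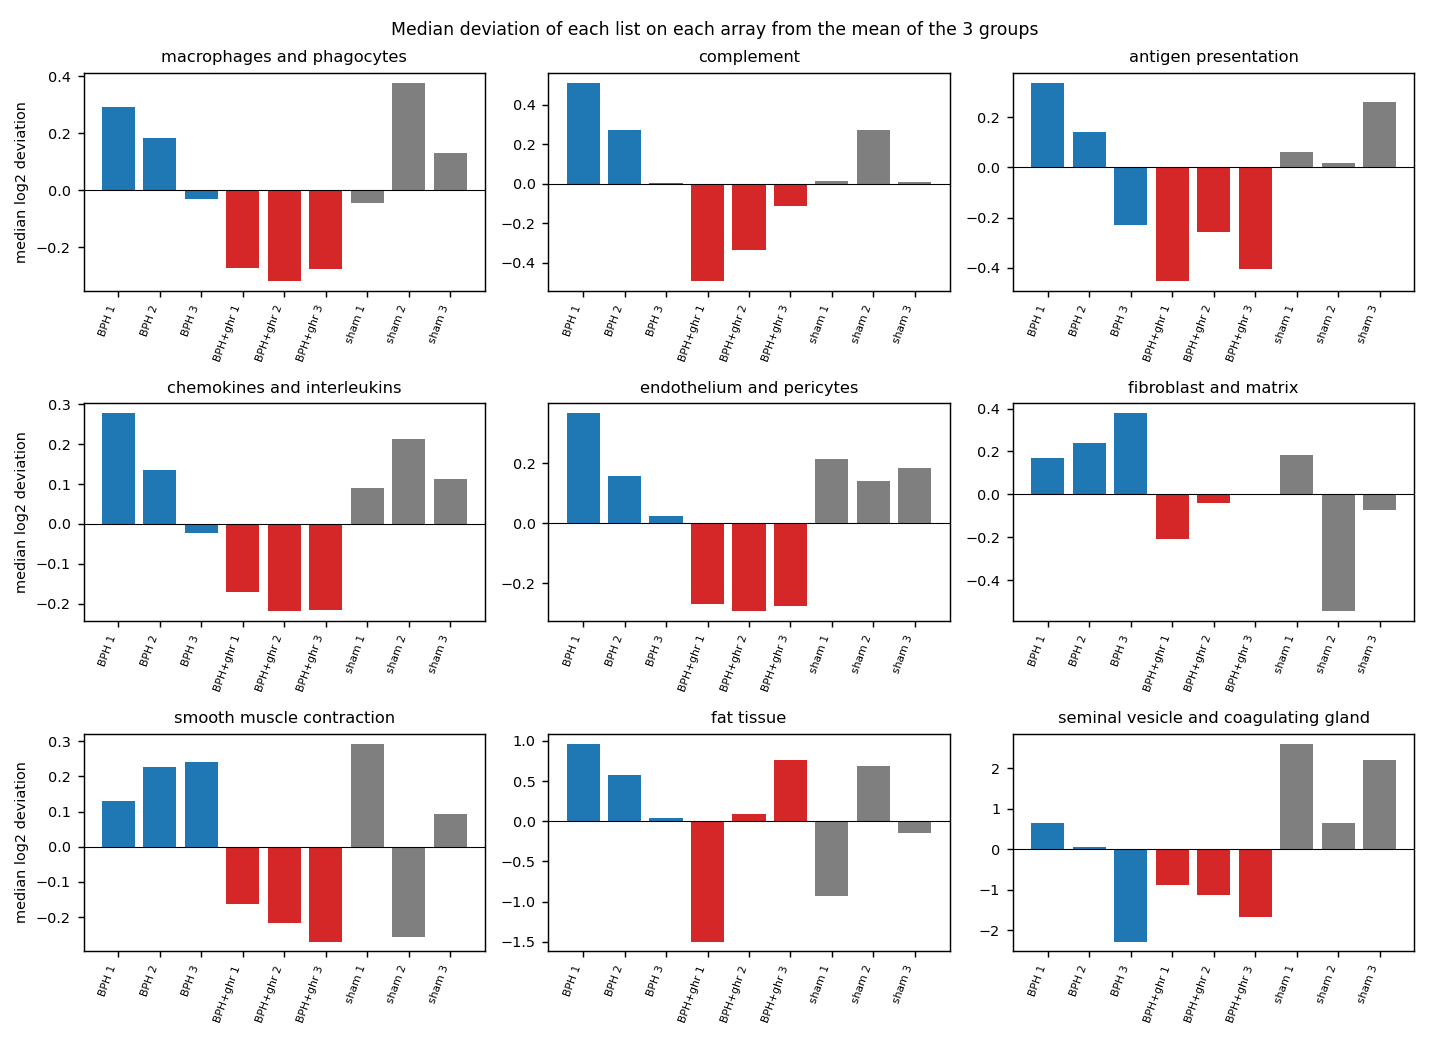
Median deviation of the genes of 9 lists on each array from the mean of the 3 groups (y axis, log2; bars blue for BPH, red for BPH+ghrelin, grey for sham). Arrays of BPH+ghrelin lie below those of BPH for 7 of these lists, while fat tissue is lowest on BPH+ghrelin replicate 1 (-1.50) and the seminal vesicle list is lowest on BPH replicate 3 (-2.28). The y axes differ between lists.

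Among lists of surrounding tissues, the medians for fat, seminal vesicle and striated muscle moved with single arrays. Fat tissue genes had a median log2 difference of -0.92, with 15 of 20 lower, 8 at least 2-fold lower and 0 called. Cd36, a fatty acid transporter also found in vessels and macrophages, and the glucose transporter Slc2a4 did not overlap, with log2 differences of -1.22 and -0.23 (adjusted p = 0.109 and 0.4). Without BPH+ghrelin replicate 1, the median of the fat list was -0.05. Summed signals of the fat list overlapped, with 13.63 to 14.36 in BPH and 13.42 to 14.15 with ghrelin. Seminal vesicle and coagulating gland genes had a median of -0.71 (7 of 8 lower, 0 called), which was -0.27 without BPH replicate 1 and -1.53 without BPH replicate 3, and Svs4 ranged from 9.02 to 12.12 in BPH and from 8.85 to 11.40 with ghrelin. Aldh1a3, which makes retinoic acid, had a log2 difference of -1.09 (adjusted p = 0.193). Summed signals of that list ranged from 9.69 to 14.83 in BPH, from 9.54 to 12.01 with ghrelin and from 16.47 to 17.29 in sham. Genes of striated muscle were higher in 17 of 26 cases (median 0.31, and 0.09 without BPH replicate 1, 0 calls), with overlap at Acta1 (log2 difference -0.36) and log2 differences of 0.81, 0.58 and -0.63 for Pvalb, Tnni2 and Myh2. Epididymal genes were higher in 6 of 7 cases (median 0.37, and 0.26 to 0.50 without 1 array), among them the lipocalins Lcn12 and Ptgds with 0.37 and 1.34, while 14 others of that list were not measured above the filter. Summed signals of the 7 epididymal genes were 9.41 to 9.80 in BPH and 10.44 to 10.56 with ghrelin, without overlap. Urothelial genes were lower in 4 of 5 (median -0.35; Upk1b, a uroplakin, -0.35), and nerve genes were mixed, with 11 of 20 higher and a median of 0.01. Among the latter, Chat, the enzyme of acetylcholine synthesis, and Prph, a neuronal filament, had log2 differences of 1.65 and -0.38 (adjusted p = 0.0871 and 0.25). All were uncalled, and the part of these tissues in other differences was not tested.

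Luminal genes and junctions were lower in 28 of 33 cases (median -0.34), with 0 calls, and the median was -0.09 with arrays scaled to the 75th percentile. Marveld2, tricellulin, had log2 signals of 7.00, 6.43 and 5.54 against 4.92, 4.37 and 4.61 (log2 difference -1.69, adjusted p = 0.0546), and F11r and Krt7 had -0.69 and -0.52 (adjusted p = 0.0879 and 0.0927). Summed signals of the luminal list overlapped, with 17.96 to 18.48 in BPH and 17.65 to 18.16 with ghrelin. The abundant luminal keratins differed by -0.21 (Krt8) and -0.01 (Krt18). Basal genes were mixed, with 7 higher and 9 lower means (median -0.06), and the keratin Krt6c was the called gene among them. Krt5, the basal keratin, had 6.04, 5.99 and 6.26 against 5.66, 5.37 and 5.31 (log2 difference -0.65, adjusted p = 0.198), and Lamb3, a laminin chain, had 0.45 (adjusted p = 0.216). In the list of 11 other keratins, which shares Krt6c with the basal list, Krt6c rose by 0.90 (adjusted p = 0.025), and Krt23 was called as lower, with 5.43, 6.11 and 6.48 in BPH and 3.04, 2.83 and 0.64 with ghrelin, where 1 of 3 arrays was well above background. The log2 difference of Krt23 with normexp was -0.82. Krt33b had a log2 difference of 0.95 (adjusted p = 0.0607), and the list median was 0.30, which was 0.07 without BPH+ghrelin replicate 3 and 0.12 without BPH replicate 1.

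Glycosyltransferases, which build the sugar chains of secreted and surface proteins, were lower in 37 of 47 cases, with a median log2 difference of -0.34, 21 of these without overlap and 3 calls, whereas the summed signals of the list overlapped (15.10 to 15.58 in BPH and 15.15 to 15.28 with ghrelin). B3galt5, a beta-1,3-galactosyltransferase, had log2 signals of 4.58, 4.98 and 5.13 in BPH and 1.26, 1.27 and 0.72 with ghrelin, where 0 of 3 arrays were well above background (at least 4.57-fold lower, adjusted p = 0.0295, with a log2 difference of -0.46 with normexp). Gcnt1, the core 2 branching enzyme, was also well above background on 0 of 3 arrays with ghrelin. It was at least 1.95-fold lower (adjusted p = 0.0374), with a log2 difference of -0.15 with normexp. B3galt5 and Gcnt1 passed the filter only through BPH, so that their calls and p-values are not support for a difference. B3gnt7 fell by 1.22, with 7.89, 7.63 and 7.16 against 6.51, 6.32 and 6.20 (adjusted p = 0.039), whereas its sham mean of 8.88 ± 0.23 (SD, n = 3) lay above both groups.

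In the list of BMP, TGF-beta and FGF members, 33 of 47 genes were lower, 20 of these without overlap, with a median log2 difference of -0.37 and 2 calls, whereas summed signals overlapped (13.71 to 14.41 in BPH and 13.68 to 13.86 with ghrelin). The ligand Bmp4 had log2 signals of 6.82, 6.47 and 5.86 in BPH and 5.05, 4.92 and 4.47 with ghrelin (fell 2.97-fold, adjusted p = 0.0468). Ltbp1, which binds latent TGF-beta, fell by 0.87 (adjusted p = 0.0426), and the receptor Bmpr1b had a log2 difference of 0.71 (adjusted p = 0.0526). In Wnt, hedgehog and Notch signalling, 17 of 40 genes were higher and 23 lower (median -0.08). The Wnt receptor Fzd3 rose by 0.75 (adjusted p = 0.043). Ihh, Indian hedgehog, had 6.24, 5.83 and 4.87 in BPH and 2.50, 1.30 and 0.61 with ghrelin, with 0 of 3 arrays well above background (at least 7.50-fold lower by means, adjusted p = 0.0546, with a log2 difference of -0.72 with normexp). Ihh passed the filter only through BPH, so that its p-value is not support for a difference. The Wnt antagonist Dkk3 had a log2 difference of -0.97 (adjusted p = 0.0546). Of 12 genes of the EGF family, the ligand Nrg2 rose by 0.83 (adjusted p = 0.0417) from a BPH mean of 2.95, although its log2 difference with normexp was 0.08, and the median was -0.12.

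Genes of the ghrelin, growth hormone and IGF axis had a median log2 difference of -0.12, with 9 higher and 16 lower means of 25 genes. The probe of ghrelin itself (Ghrl) was not well above background on enough arrays. Its receptor Ghsr was dim, with log2 signals of 3.12, 2.76 and 3.41 in BPH and 3.99, 3.90 and 4.00 with ghrelin, close to the lowest signals that passed as above background (2.39 to 2.97). Its groups did not overlap, but the difference did not pass the threshold (log2 difference 0.87, adjusted p = 0.115) and decreased to 0.09 with normexp. Igf2 was the called gene of this list, with 8.50, 8.35 and 8.18 against 7.15, 7.09 and 7.20, and a sham mean of 8.32 ± 0.06 (SD, n = 3). It fell 2.29-fold (log2 difference -1.20, SE 0.12, adjusted p = 0.0113). Igf1, in contrast, overlapped, with 11.78, 12.35 and 12.86 against 12.09, 12.61 and 12.97 (log2 difference 0.23), and Igfbp3, the major IGF-binding protein, had a log2 difference of -0.18. Irs2, an adaptor of insulin receptors, and the receptor Npy1r had -0.86 and -0.92 (adjusted p = 0.0849 and 0.0995).

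Immediate early genes, which respond quickly to stimuli and to handling of tissue, were lower in 21 of 27 cases (median -0.42, and -0.25 without BPH replicate 1). Ccn2, a matricellular protein, had 11.38, 10.94 and 10.39 in BPH and 9.18, 9.36 and 9.59 with ghrelin (fell by 1.53, adjusted p = 0.0301). Klf6 and Klf10, Krüppel-like factors, had log2 differences of -1.19 and -0.60 (adjusted p = 0.071 and 0.167). In the circadian clock, 8 of 16 genes were higher and 8 lower (median -0.04), and 1 was called in each direction. Bhlhe40, a repressor in the clock, fell by 1.42 (adjusted p = 0.0436), and Csnk1e, a clock kinase, rose by 0.75 (adjusted p = 0.039), but its other 2 probes gave 0.50 and -0.34. Tef, a clock output factor, had 9.79, 9.33 and 8.58 against 8.06, 7.82 and 7.65 (log2 difference -1.39, adjusted p = 0.1). Times at which tissues were taken are not given in the sources used here.

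Inhibitors of proteases were lower in 15 of 25 cases (median -0.33, and -0.08 with arrays scaled to the 75th percentile). Serpine2, protease nexin 1, fell 3.00-fold (adjusted p = 0.016), with log2 signals of 6.14, 5.78 and 5.57 against 4.42, 4.28 and 4.02. Serpina5 had a log2 difference of -0.84 (adjusted p = 0.0524). Mug1 was well above background on 0 of 3 arrays with ghrelin, and its mean was at least 2.16-fold lower (adjusted p = 0.0856, with a log2 difference of -0.21 with normexp). As Mug1 passed the filter only through BPH, its p-value is not support for a difference. Genes of p53 and apoptosis were lower in 18 of 27 cases (median -0.15, 0 calls). Casp8, an initiator caspase, and Mcl1, a survival factor, had -0.55 and -0.55, and Zmat3, a p53 target, had 0.43 (adjusted p = 0.071, 0.0817 and 0.117), the last with 0.04 for its other probe. The inhibitors Cdkn1a and Cdkn1b differed by -0.06 and 0.21, but the second probe of Cdkn1a gave 1.13. Ccnd2, a G1 cyclin, had a log2 difference of -0.76 (adjusted p = 0.0583), and E2f3 had 0.86 (adjusted p = 0.13). Metallothioneins and zinc transporters were mixed (10 higher and 11 lower of 21, median -0.07, 0 calls). Mt2A, singled out after its values were seen, had 12.92, 12.04 and 8.89 in BPH and 9.24, 9.13 and 9.05 with ghrelin, so that 1 BPH array was below all arrays with ghrelin. The zinc transporters Slc30a1, Slc39a6 and Slc39a11 had log2 differences of 0.44, 0.62 and 0.62 (adjusted p = 0.0925, 0.123 and 0.14).

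Further genes that were lower and measured on all 6 arrays were called with wide differences. Cemip2, a cell surface protein linked to hyaluronan degradation, had 7.55, 7.72 and 7.90 against 5.27, 5.38 and 5.60 (4.95-fold, adjusted p = 0.0166), although its second probe gave a log2 difference of -0.35. Plk2, a polo-like kinase, fell 4.62-fold (adjusted p = 0.039), Nxpe4 4.92-fold (adjusted p = 0.025), and Dok6, a docking protein of receptor tyrosine kinases, 3.93-fold (adjusted p = 0.0316). Atp6v1c2, a subunit of the proton pump, fell 3.50-fold (adjusted p = 0.0449), and its sham mean of 11.64 was higher than in both groups. Cilp, a matrix protein, fell 3.45-fold (adjusted p = 0.025), Fibin 3.67-fold (adjusted p = 0.024, second probe -0.67 on the log2 scale), Cstpp1 3.69-fold (adjusted p = 0.024) and the serine protease Prss39 3.86-fold (adjusted p = 0.043, second probe -0.46). With normexp, log2 differences of the genes in this paragraph were smaller in size, from -0.58 (Cilp) to -1.32 (Nxpe4), with -0.61 for Plk2. Dok6, Prss39 and Atp6v1c2 were called in 0 of the 6 fits without 1 array, and the others in 1.

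**Figure D5:**
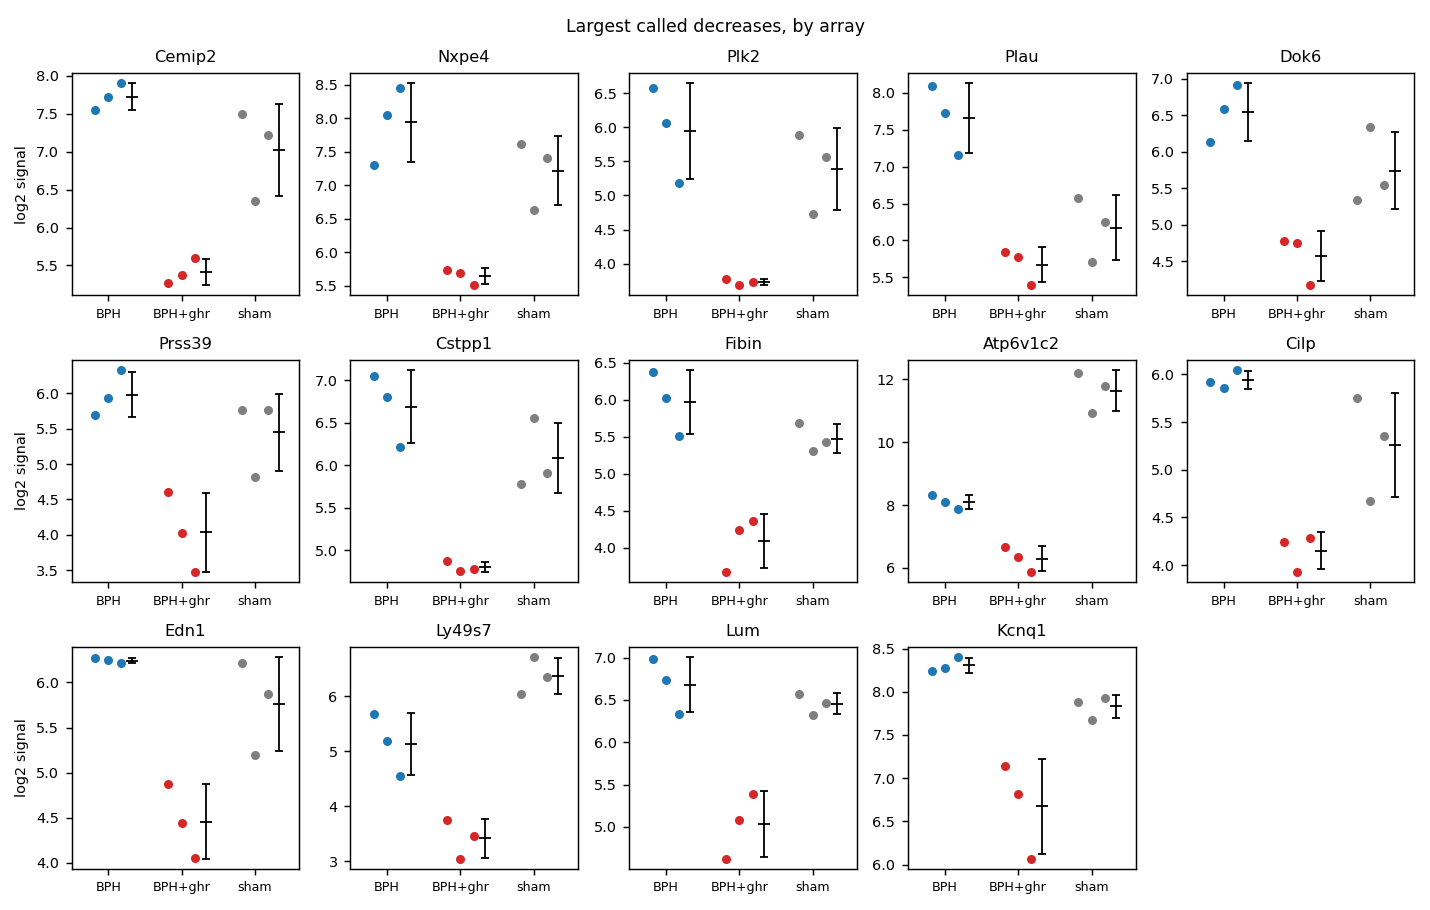
Log2 signals (y axis) on each array for 14 genes that have a symbol, among those with the largest called decreases and probes well above background on all 6 arrays compared (points: blue BPH, red BPH+ghrelin, grey sham). Black bars are mean ± SD of 3 arrays, and the y axes differ between genes. All red points lie below all blue points, with a 4.95-fold decrease of Cemip2.

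Genes above background on all BPH arrays but on 0 of 3 arrays with ghrelin are given as bounds, and they too passed the filter only through the group in which they were high. Ccn5, a matricellular relative of Ccn2, had 5.56, 5.20 and 4.66 in BPH and was at least 5.42-fold lower with ghrelin (adjusted p = 0.0147), although its log2 difference with normexp was -0.47. Foxa2, a forkhead transcription factor, was at least 2.23-fold lower (adjusted p = 0.0302), Soat1, which esterifies cholesterol, at least 2.05-fold (adjusted p = 0.0453) and C13h1orf115 at least 2.03-fold (adjusted p = 0.016). With normexp, the log2 differences of Foxa2, Soat1 and C13h1orf115 were -0.20, -0.20 and -0.17.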

How the data were processed

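Prostate RNA of 9 rats was measured on 9 one-colour Agilent arrays, 3 per group. Per the file headers, the authors deposited spot intensity values from Feature Extraction 11.0.1.1, with background subtracted, and a table of quantile-normalized log2 values, which served as an alternative. Control and outlier spots were left out, spots of a probe were averaged, and log2 intensity was quantile-normalized over 9 arrays. Probes were matched to RefSeq symbols (GRCr8) by accession (17998 of 30356, 59.3%), and the brightest passing probe stood for a gene. Differences were tested with limma 3.58.1 (R 4.3.3) in a model of the 3 groups with Benjamini-Hochberg adjustment at 0.05, after a check on simulated data. Nothing states whether replicate numbers pair arrays.

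Named were, without the 12 genes followed up by the study, up to 15 called genes per direction with the largest differences, measured on all 6 arrays and without overlap, up to 8 per direction known only as bounds, up to 3 per list with the smallest p among genes without overlap, and 27 further genes whatever their values. Of the latter, Mki67 and Top2a had no named probe and are not analysed here. The genes and lists were chosen with earlier results of these data known. Bounds were calculated from group means, with the dim group at the higher, per array, of its own signal and the lowest signal well above background. Alternatives covered normalization, background (normexp with an offset of 50 on median spot and background signals), filters, arrays, slide, replicate block, probes, the deposited table and thresholds. Some genes that the rule names are not reported here.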

Additional observations from a re-analysis of the deposited data

How the results depend on the processing

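The number of calls depended on the processing, and the cause was not tested. Compared to 293 calls (98 higher, 195 lower), scaling to the 75th percentile gave 517 (244 higher), normexp gave 180 higher calls, and omission of the filter gave 195 (58 higher). The 6 arrays alone gave 2106 (896 higher, 1210 lower), and all 293 calls were among them. An unadjusted p under 0.05 gave 4172 (2107 higher, 2065 lower), which with a 2-fold difference became 890 (415 higher, 475 lower), and an adjusted p under 0.1 gave 1075 (461 higher, 614 lower). A replicate block gave 17 (8 higher, 9 lower). Correlations of deviations between arrays of the same number were -0.07, 0.07 and -0.05. With 3 arrays per group, these values cannot decide whether replicate numbers pair the arrays. Slide as a block gave 2 (1 higher, 1 lower). Without 1 array, calls ranged from 3 to 398 (0 to 147 higher, 3 to 251 lower). Without replicate 2 of both groups, an alternative chosen after seeing the data, limma called 0 genes (0 higher, 0 lower), and 1366 genes had an unadjusted p under 0.05.

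With a difference of 2-fold or more, 573 genes were higher and 632 lower, whereas normexp gave 73 and 95 and omission of the filter gave 1005 and 978, while 333 were lower when all 6 arrays had to be above background. Differences that changed sign were those of Rpl5 (0.035 with the 75th percentile), Krt18 (0.43 with the 75th percentile, 0.22 with slide as a block, 0.054 without replicate 2 of both groups and -0.20 to 0.16 without 1 array), Fkbp5 (-0.024 with slide as a block, -0.027 without replicate 2 of both groups and -0.059 to 0.091 without 1 array), Igf1 (-0.24 with slide as a block and -0.049 to 0.49 without 1 array), Cdkn1a (0.11 with the 75th percentile, 0.53 for the mean of its probes, 0.069 with slide as a block and -0.19 to 0.070 without 1 array), Adipoq (-5.06 to 0.61 without 1 array) and Svs4 (0.55 with slide as a block and -1.45 to 0.19 without 1 array). The number of arrays limits precision, and genes near background have less certain values.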
